A study of Orestias ascotanensis with 42 samples.

Results

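The 100 genes described here had higher levels in summer than in winter in the muscle of the killifish Orestias ascotanensis, and nearly level means between the seasons in gills and skin. They were taken from 21024 counted genes. A gene had to average 5 to 200 CPM (counts scaled to a common library size, after correcting it with edgeR's TMM factors over all 42 libraries) in each of the 3 tissues, with the largest tissue mean under 4 times the smallest, which 8067 genes did. Its summer minus winter difference of mean log2(CPM + 1) had to be under 0.2 in size in gills and in skin, which left 2719 genes. These were ranked by the t statistic of summer against winter muscle (the difference over its standard error, with a spread for each season), and the first 100, or 0.476% of all genes, were taken. The genes were thus chosen by the muscle difference relative to its spread, the small differences in gills and skin and the bounded tissue ratio. Those values are given below as a description, and the p-values of the muscle contrast beside them support nothing.

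The fish were wild, caught by net in the Ascotan salt pan at 3740 m, in January 2020 for summer and July 2019 for winter. Each of 14 fish gave muscle, gills and skin, so the 42 poly-A libraries form 6 groups of 7: muscle, gills and skin in summer, and the same tissues in winter. No strain, age or treatment is labelled, each season is a single collection, and season cannot be told apart from year or collection. Per the labels each library is 1 fish, but the summer muscle libraries 3, 5, 6 and 7 were nearly alike, with a robust spread of log2 count ratios (MAD) of 0.0898 to 0.137 within each pair, under the limit of 0.15. The same held for gills summer 4 and 7, gills winter 2 and 7, gills winter 3 and 6, and skin winter 2, 6 and 7, with MADs of 0.0746 to 0.144, so 13 of the 42 libraries fell in 5 near-identical sets, and whether each came from a separate fish was not tested. P-values below measure the spread between these libraries, whatever their source.

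Muscle libraries held 6074371 counts in summer fish 4 and 28009075 to 154396513 in the other summer fish, against 28193181 to 69342734 in winter fish. Every member had counts in every muscle library, with the lowest at 26 in summer fish 4 and at 15 in winter fish 7. Summer muscle 4 and summer skin 3 and 4 stood apart from their tissues, with median Spearman correlations under 0.88. In 4 libraries, muscle winter 4, gills summer 1, gills winter 7 and skin summer 7, the season tag differs from the title, and the title was followed.

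Skeletal muscle makes up most of the body of a bony fish and holds fast fibres for bursts of swimming and slow fibres for sustained swimming. In fish, which do not hold a constant body temperature, muscle is known to adjust its metabolism, protein turnover and growth to temperature, food and activity. The files do not pair the identifiers with gene names or sequences. No role can therefore be given to any member, the lists of clock, heat shock, mitochondrial, growth and energy genes had no gene to be compared with, and the tissues could not be checked against their defining markers. At most 2 identifiers are printed, and the other members are called by their rank of t. CPM are not divided by gene length. Where members are ordered or split by CPM below, the order therefore depends on gene length too and is a description only.

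In each library the median of the members, on the log2(CPM + 1) scale, summarised their level. In summer muscle it was lowest at 4.16 in fish 2, had a median of 4.28 and was highest at 4.46 in fish 4. In winter muscle it was lowest at 3.53 in fish 7, had a median of 3.80 and was highest at 4.05 in fish 1. All 7 summer libraries lay above all 7 winter libraries, as the choice of genes favours. In gills it ran from 4.25 to 4.44 in summer and from 4.19 to 4.31 in winter, and in skin from 4.09 to 4.37 in summer and from 4.06 to 4.25 in winter. Summer muscle, at 4.29 ± 0.11 (SD, n = 7), lay among the gills and skin libraries except for fish 4, which was above all of them. Winter muscle, at 3.77 ± 0.21 (SD, n = 7), lay below all of them. These placements rest on the TMM factors, which were 0.319 to 0.660 in muscle and 0.678 to 1.86 in skin and gills. With no factor, the summed CPM of the members was 1472 to 2041 in summer muscle and 629 to 1530 in winter muscle. It was at least 2142 in skin and 4511 in gills, so muscle of both seasons then lay below every skin and gills library.

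**Figure D1:**
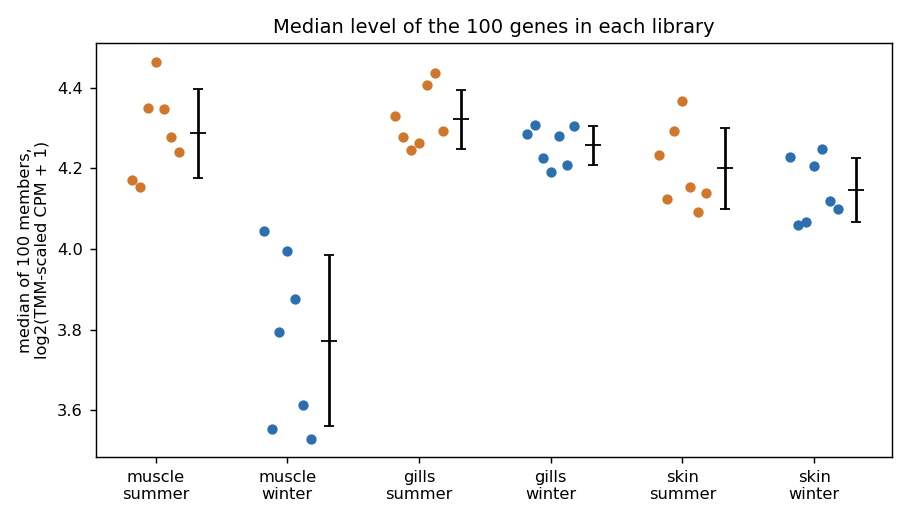
Median level of the 100 genes in each of the 42 libraries, on the log2(TMM-scaled CPM + 1) axis; points are libraries, bars are the group mean ± SD (n = 7). Summer muscle sits between 4.16 and 4.46, its highest library above every gills and skin library, and winter muscle sits between 3.53 and 4.05, below every other library.

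The 2719 genes that met the level, ratio and gills and skin conditions leaned the other way in muscle. Of them, 1034 had a positive and 1685 a negative summer minus winter difference, with a median of -0.12 on the log2 scale, while the median over the 16329 genes averaging at least 1 CPM was -0.07. The members had a median difference of 0.57, a minimum of 0.28 and a maximum of 1.31, or 1.48-fold, 1.22-fold and 2.48-fold on the CPM + 1 scale. Of the 100, 7 were at least 2-fold higher and 52 less than 1.5-fold higher. The t that admitted the last member was reached in the opposite direction by 279 genes, so the 100 risers include smaller t values than a list of 100 fallers built the same way, whose t ran from -7.92 to -3.86, against 2.80 to 7.12 in the members. Just inside the limit the members ranked 99 and 100 both had a t of 2.80, and the first 2 genes outside both had 2.78, so no gap separated them.

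OAV3G000013090, the member ranked first, had 14.0 CPM in the lowest, 16.0 in the median and 21.7 in the highest summer muscle library, against 8.52, 10.5 and 11.3 CPM in winter muscle. The groups did not overlap, and the highest summer value was that of fish 4, the shallow library. Gills were at 16.1 ± 1.73 CPM in summer and 15.4 ± 1.39 in winter (SD, n = 7 each), and skin at 12.6 ± 1.89 in summer and 11.1 ± 1.34 in winter. Winter muscle was thus the lowest of the 6 group means, at 10.3 ± 1.08 CPM. In muscle, edgeR's quasi-likelihood test gave a log2 fold change of 0.73 ± 0.15 (SE; adjusted p = 0.0133).

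OAV3G000015181, ranked second, had 39.3 CPM in the lowest, 42.6 in the median and 47.0 in the highest summer muscle library, against 23.2, 28.3 and 35.9 CPM in winter muscle. Here too the groups did not overlap. Muscle stayed below the other tissues in both seasons: gills held 66.4 ± 3.98 CPM in summer and 61.2 ± 3.35 in winter (SD, n = 7 each), and skin 51.0 ± 2.02 in summer and 45.3 ± 0.989 in winter. The difference in skin, 0.17 on the log2(CPM + 1) scale, was inside the limit of 0.2 although the summer skin libraries, from 48.5 CPM upwards, lay above the winter ones, which reached 46.5 CPM. In muscle, edgeR gave a log2 fold change of 0.65 ± 0.13 (SE; adjusted p = 0.0115). When each set of near-identical libraries was averaged into 1 sample, neither gene passed in edgeR, with log2 fold changes of 0.76 (adjusted p = 0.171) for OAV3G000013090 and 0.65 (adjusted p = 0.166) for OAV3G000015181; averaging leaves 4 summer and 7 winter samples in muscle.

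**Figure D2:**
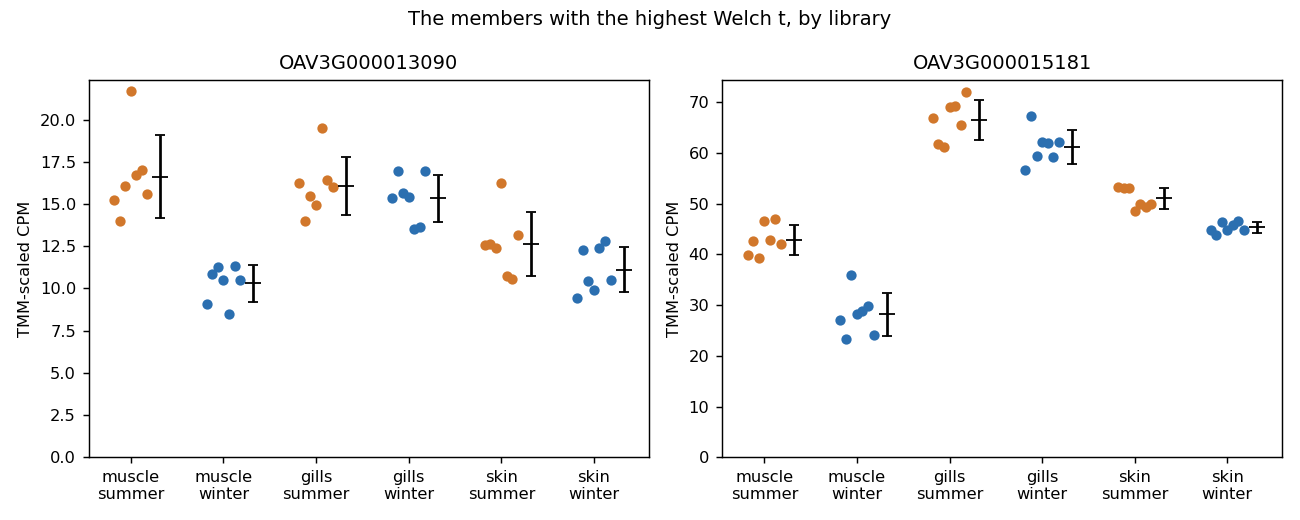
TMM-scaled CPM of the members ranked first and second in every library, in 6 groups of 7; bars are the mean ± SD. In muscle the summer points do not overlap the winter points for either gene, and OAV3G000015181 is lower in muscle than in gills and skin in both seasons.

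The third-ranked member had a higher level in muscle than in gills and skin on TMM-scaled CPM, a placement that rests on the TMM factors. It had 43.9, 64.2 and 74.5 CPM in the lowest, median and highest summer muscle library, against 21.1, 33.0 and 38.0 CPM in winter muscle, with no overlap, while gills averaged 18.8 ± 1.54 CPM in summer and 16.6 ± 1.44 in winter and skin 28.0 ± 10.9 in summer and 24.0 ± 4.07 in winter. Its log2 fold change of 1.02 ± 0.16 (SE) had the smallest adjusted p of the members, 0.00544 in edgeR. The skin mean of summer was raised by fish 3, at 49.3 CPM, 1 of the skin libraries that stood apart. The members ranked 4 and 5 also had no overlap between seasons in muscle. The member ranked 4 had 15.2, 18.4 and 20.6 CPM in summer muscle, against 8.94, 11.4 and 14.0 in winter muscle. The member ranked 5 had 17.2, 18.4 and 21.9 CPM in summer muscle, against 11.4, 13.9 and 15.2 in winter muscle. On the log2(CPM + 1) scale the member ranked 3 differed between seasons by 0.18 in gills and 0.15 in skin. For the member ranked 4 it was 0.18 and 0.17, near the limit of 0.2, and for the member ranked 5 -0.07 and -0.16.

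The largest difference belonged to the member ranked 62, whose winter values were spread widely. It had 9.50, 12.1 and 22.2 CPM in the lowest, median and highest summer muscle library, against 1.37, 3.08 and 13.6 CPM in winter muscle. The winter maximum was in fish 4, whose season tag reads summer, and winter fish 1 followed at 11.5 CPM; the groups overlapped, and 2 of the 7 summer libraries were above the winter maximum. Its edgeR log2 fold change of 1.23 ± 0.41 (SE) did not pass, at an adjusted p of 0.0802. The smallest difference, 0.28, was that of the member ranked 51, at 51.3 ± 2.97 CPM in summer and 42.2 ± 6.69 in winter muscle. Its winter maximum of 56.9 CPM lay above every summer library.

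The member with the highest muscle level, ranked 34, had 130, 223 and 238 CPM in the lowest, median and highest summer muscle library, against 110, 136 and 161 CPM in winter muscle. Its lowest summer value was in fish 4, and the other 6 summer libraries were above the winter maximum. The member with the lowest muscle level, ranked 77, averaged 6.22 ± 1.26 CPM in summer and 4.54 ± 0.812 in winter muscle (SD, n = 7 each). The last members, ranked 99 and 100, averaged 15.9 ± 3.86 and 12.0 ± 1.89 CPM in summer muscle, against 10.3 ± 3.33 and 9.29 ± 1.65 CPM in winter muscle, and both overlapped between the seasons.

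In 14 of the 100 members all 7 summer muscle libraries lay above all 7 winter ones. These 14 were the only such genes among the 2719 meeting the conditions, or 0.515% of them, and 0.599% of all genes with a count did so. Ranking by t favours such genes, so nothing is read from the share among the members. The 14 members ranked from 1 to 29, with log2 differences of 0.40 to 1.01. In 76 members all summer libraries were above the 5 lowest winter libraries. In 88 members 7 of 7 summer libraries were above the winter median, and in the other 12 it was 6 of 7. No share over all genes was computed for the counts of 76, 88 and 12. Ranking by t favours such counts, and nothing is read from them. In edgeR's fit of muscle 42 of the 100 were called higher in summer at an adjusted p under 0.05, beside 2.36% of the 17181 genes tested, and none of the other genes meeting the conditions was. Because the contrast chose the members, nothing is read from that share. The 42 had log2 fold changes of 0.52 to 1.22. The 58 that missed had 0.32 to 1.31, with adjusted p of 0.0506 to 0.186. Of the 7 members at least 2-fold higher, 3 were called. Among the 50 members with a muscle mean of 15 CPM or more 29 were called, and among the 50 below it 13, with median log2 differences of 0.52 and 0.59. No share over all genes was computed above or below 15 CPM, so nothing particular to the members is read from this split. After averaging near-identical libraries, edgeR called 0 members and 0 of the 17679 genes tested. At an unadjusted p under 0.05, 71 members were higher in summer in that fit, beside 7.45% of all genes. DESeq2, run on all muscle libraries, called 82 members and 4.94% of all genes.

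**Figure D3:**
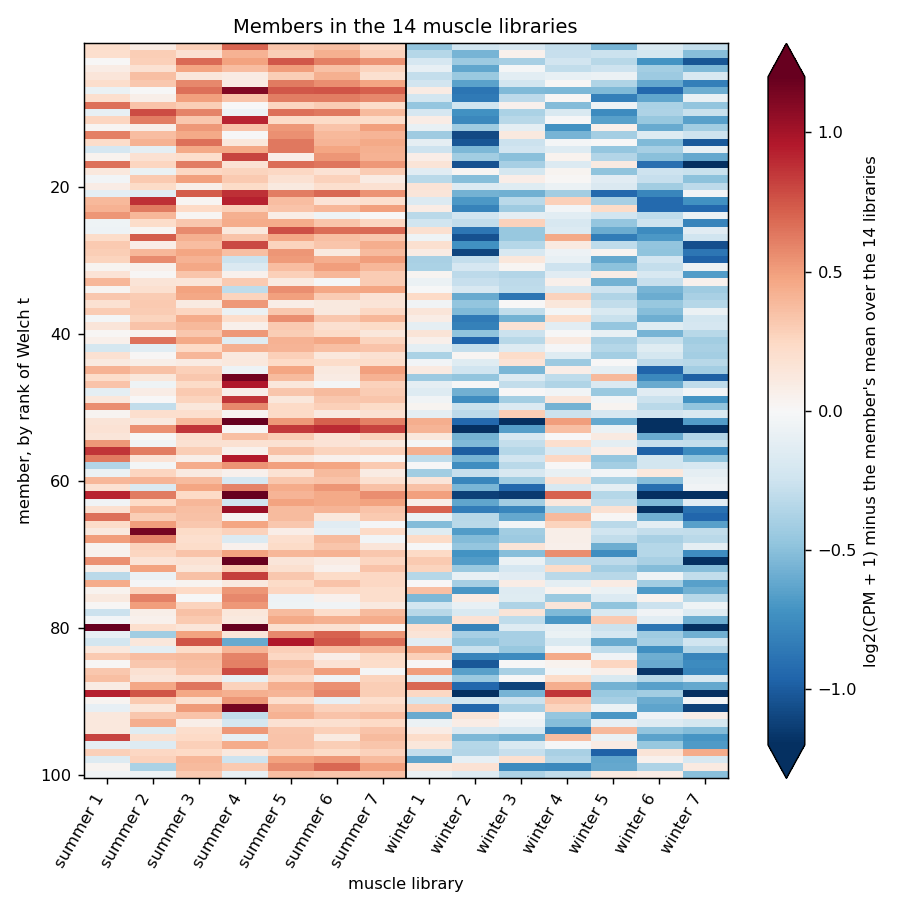
Members in rows, ordered by rank of t from the top, and the 14 muscle libraries in columns, summer on the left; colour is log2(CPM + 1) minus the member's mean over the 14 libraries. Summer columns are mostly above and winter columns mostly below the mean, winter fish 2, 6 and 7 are the lowest, and summer fish 4 is the most uneven column.

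The members did not move evenly over the fish. Summer fish 3, 5, 6 and 7, the near-identical libraries, each had all 100 members above the winter median, and 64 to 72 above the winter maximum. Fish 1 and 2, of the other summer libraries, had 96 and 97 members above the winter median and 47 and 51 above the maximum. Summer fish 4 had 95 above the median and 59 above the maximum, and held the highest of the 14 values for 35 members, the most of any library. On the winter side the lowest value fell in fish 2 for 31 members, in fish 7 for 26 and in fish 6 for 14. Winter fish 1 and 4 were the highest of their season: 32 members in fish 1 and 30 in fish 4 exceeded all other winter libraries. No share over all genes was computed for these counts by fish. Ranking by t favours summer values above winter ones, so nothing particular to the members is read from the counts. Leaving out any 1 of the 14 muscle libraries shrank no member's difference by over 1.5 times, and the median over the members stayed between 0.53 and 0.60. Ranking by t on these same libraries favours such steadiness, and nothing is read from it. Which genes made the first 100 did depend on the library left out. Without summer fish 4, 63 of the 100 were chosen again, and without any other single library 78 to 92. The count of edgeR calls was less steady. It was 16 without winter fish 2, 16 without winter fish 6 and 21 without winter fish 7, and 19, 16, 17 and 16 without summer fish 3, 5, 6 and 7; without the others it stayed within 1.5 times of 42. Calls over all genes fell alike in these 7 fits, to 0.917% to 1.27% of the genes tested, against 2.36% with every library.

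Winter muscle libraries fell into a low and a high group by scaling factor, and the members were lower in the low group. Winter fish 2, 3, 6 and 7 had TMM factors of 0.422, 0.360, 0.369 and 0.319 and member medians of 3.55, 3.80, 3.61 and 3.53. Winter fish 1, 4 and 5 had factors of 0.621, 0.635 and 0.639 and medians of 4.05, 4.00 and 3.88. Within each group the medians did not rise in step with the factor. The list of 100 fallers went the other way, with medians of 4.81 to 4.97 in the high group and 5.14 to 5.36 in the low group. The 2719 genes meeting the conditions did too, with medians of 4.29 to 4.34 in the high and 4.40 to 4.45 in the low group. Pairs of winter libraries had MADs of 0.275 to 0.462 within the high group and 0.310 to 0.646 within the low group. Pairs across the groups had 0.649 to 1.01. Summer libraries had factors of 0.483 to 0.520, apart from 0.660 in fish 4, and so lay between these winter libraries. Set against winter fish 1, 4 and 5 only, the members' median difference was 0.37, against 0.70 for winter fish 2, 3, 6 and 7 only; all 100 differences were positive both times. EdgeR called 14 members higher against winter fish 1, 4 and 5, beside 3.81% of all genes, and 77 against winter fish 2, 3, 6 and 7, beside 12.7% of all genes. Calls over all genes were thus more frequent in both than the 2.36% with every winter library. OAV3G000013090 and OAV3G000015181 passed in both, with log2 fold changes of 0.88 and 0.67 against winter fish 1, 4 and 5 (adjusted p = 0.0197 and 0.0149), and 0.63 and 0.64 against winter fish 2, 3, 6 and 7 (adjusted p = 0.0123 and 0.00776). This split was chosen after the data were seen, and the part of the factor in the result was not tested. The muscle contrast chose the members, so neither the positive differences nor the passes of these genes support anything. All summer muscle libraries were kept in both fits, the near-identical ones included, and winter fish 4 carries a summer tag.

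**Figure D4:**
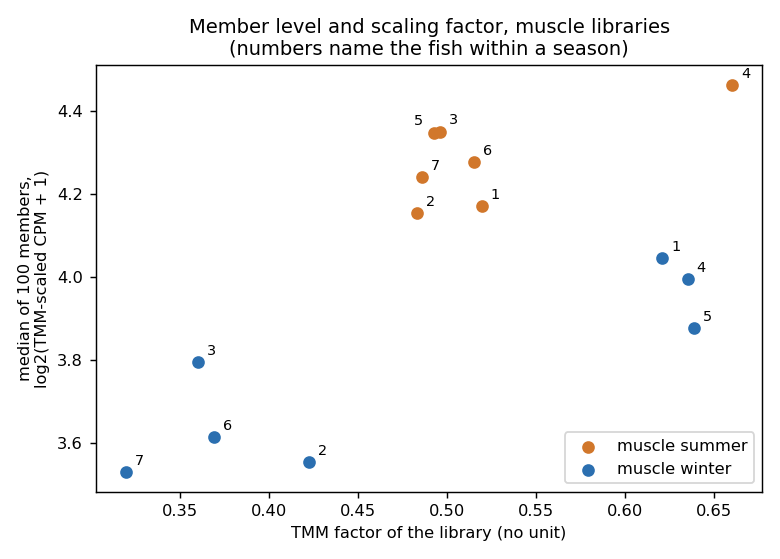
Median level of the members, log2(TMM-scaled CPM + 1), against the TMM factor of the 14 muscle libraries; numbers name the fish within a season. Summer libraries lie above winter libraries of any factor, and winter fish 2, 3, 6 and 7, with factors of 0.319 to 0.422, lie below winter fish 1, 4 and 5, with factors of 0.621 to 0.639.

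Other properties of the muscle libraries were compared between the seasons in 7 two-sided exact permutation tests over 3432 splits. The TMM factor averaged 0.522 ± 0.06 in summer and 0.481 ± 0.14 in winter (SD, n = 7 each; exact permutation p = 0.492). The 10 most abundant genes took 41.5% ± 3.82 of the counts in summer and 42.9% ± 4.19 in winter (exact permutation p = 0.503). Genes at least 4-fold higher in muscle than in both other tissues, 972 in number, took 62.5% ± 3.18 of the counts in summer and 64.9% ± 4.19 in winter (exact permutation p = 0.262). None of these genes was a member, which the limit of 4 on the tissue ratio all but sets. The 897 gill-enriched genes took 0.0797% ± 0.03 in summer and 0.116% ± 0.06 in winter (exact permutation p = 0.217), and the 214 skin-enriched genes 0.0493% ± 0.02 in summer and 0.0445% ± 0.01 in winter (exact permutation p = 0.655). The total count and the share of genes at 0 were the other two values tested (exact permutation p = 0.546 and 0.801), and the adjusted p over the 7 was 0.764 for 6 of them and 0.801 for the genes at 0. In bulk muscle, a change in the number of cells of a type and a change in RNA per cell cannot be told apart.

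The direction of the difference between tissues was not used to choose the members, beyond the limit of 4 on the ratio, and was tested on all 42 libraries with the seasons averaged. The directions below rest on the TMM factors, which were lower in muscle than in gills and skin, and no fit between tissues was run without a factor. Muscle was higher than gills for 31 of the 100 members and lower for 45 at an adjusted p under 0.05 in edgeR. Among all 19258 genes tested the shares were 37.9% and 43.3%, and among the genes meeting the conditions 34.9% and 42.4%. Muscle was higher than skin for 30 members and lower for 40, beside 32.9% and 38.1% of all genes and 28.7% and 41.9% of the genes meeting the conditions. These counts are near the background, and nothing particular to the members is read from them. Members called higher in muscle than in both other tissues numbered 20, the third-ranked among them, and those called lower than in both numbered 31, OAV3G000015181 among them. Of all genes tested 27.5% were called higher and 31.6% lower than in both, and of the genes meeting the conditions 23.9% and 33.7%, so these counts are near the background too. OAV3G000013090 was lower in muscle than in gills, with a log2 difference of -0.25 ± 0.08 (SE; adjusted p = 0.00530 in edgeR), and did not pass against skin (0.15 ± 0.08, adjusted p = 0.1001). OAV3G000015181 had log2 differences of -0.86 ± 0.06 from gills (adjusted p = 3.91e-16) and -0.46 ± 0.06 from skin (adjusted p = 2.4e-08). The log2 difference from gills ran from -1.87 to 1.71 over the members, with a median of -0.13, and that from skin from -1.43 to 1.47, with a median of -0.10.

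Taken by season, the members' muscle means stood differently against the other tissues. In summer 57 members had a higher mean in muscle than in gills, and in winter 28. Against skin it was 60 in summer and 28 in winter. Over the genes meeting the conditions, muscle was higher than gills for 42.8% in summer and 48.1% in winter, and higher than skin for 39.6% in summer and 45.8% in winter. The median log2 ratio of muscle to gills over the members was 0.10 in summer and -0.43 in winter, and that of muscle to skin 0.13 in summer and -0.36 in winter. Set against the season-averaged means of gills and skin, 31 members were below both in summer muscle and 64 in winter muscle, and 48 were above both in summer muscle and 18 in winter muscle. The summer mean was nearer than the winter mean to the gills level for 59 members and to the skin level for 58. For 14 members, muscle was above both in summer and below both in winter. The direction of these shifts follows from the way the genes were chosen, so nothing is read from it, and no test was run on them. On the log2(CPM + 1) scale every member rose by at least 0.28 in muscle and changed by under 0.2 in gills and in skin. The positions also rest on the TMM factors over all 42 libraries. The list of 100 fallers, chosen for the opposite difference, showed the opposite. In it 14 genes were higher in muscle than in gills in summer and 58 in winter, and 7 higher than in skin in summer and 50 in winter.

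**Figure D5:**
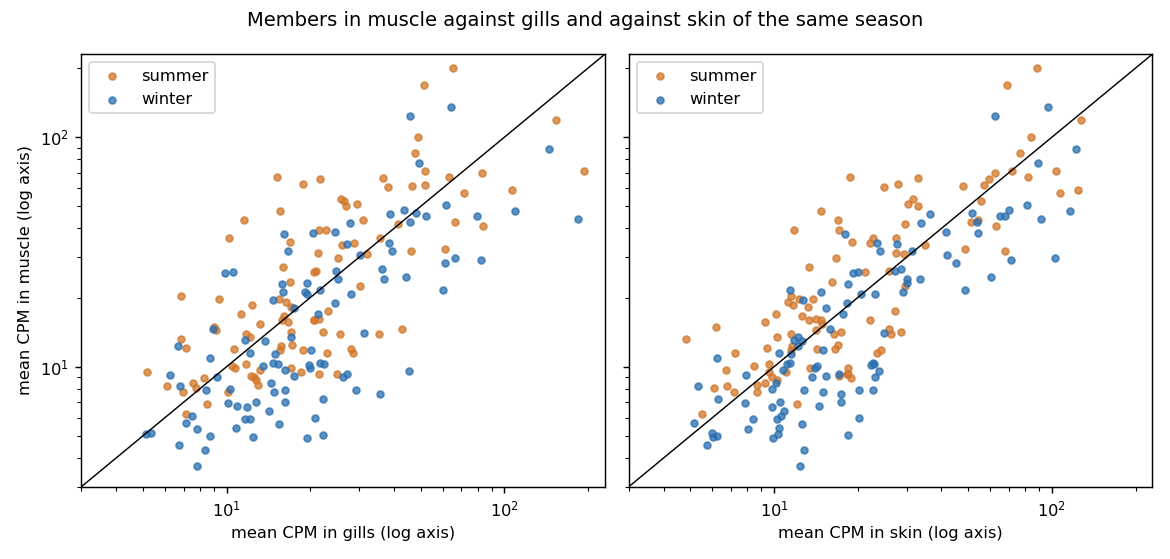
Mean CPM of each member in muscle (log axis) against its mean CPM in gills (left) and skin (right) of the same season (log axes), summer and winter; the line marks equal levels. Of the 100 summer points 57 lie above the line for gills and 60 for skin, and of the winter points 28 in each panel.

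Spread between libraries was smallest in gills, where 6 of the 14 libraries are in near-identical pairs. The SD of log2(CPM + 1) had a median over the members of 0.15 in summer and 0.14 in winter gills, the same values to 2 decimals as over the 2719 genes meeting the conditions. In skin it was 0.33 in summer and 0.21 in winter, beside 0.32 and 0.20 over those genes. In muscle it was 0.22 in summer and 0.31 in winter, beside 0.30 and 0.35, where ranking by t favours genes of small spread. With each near-identical set averaged into 1 sample, an alternative chosen after the data were seen, the members' median SD was 0.26 in summer and 0.31 in winter muscle, 0.15 in both seasons in gills, and 0.32 in summer and 0.22 in winter skin. The spread was again smallest in gills. The members differed between seasons by 0.05 in gills and 0.04 in skin in the median, with ranges of -0.17 to 0.20 and -0.19 to 0.20 that the limit sets. Over the 2719 genes meeting the conditions the medians were 0.005 in gills and -0.025 in skin. The upper quartiles were 0.10 and 0.13 over the members, against 0.06 and 0.08 over those genes. Within the limit the members thus leaned upwards in both tissues, which was not tested.

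How level the skin was rested on the libraries that stood apart. Without summer skin 3 and 4 and summer muscle 4, the conditions were met by 5502 genes, against 2719 with all libraries. Of the 100 members 78 still met them, and the other 22 left because their skin difference reached 0.2 or more, with differences over the members from -0.48 to 0.48. The median difference of the members in muscle was 0.60 without these libraries, and all 100 stayed positive, as the choice of genes favours. Only 24 of the 100 stayed in the list. Leaving out summer muscle 4 alone kept 63, from a pool of 2720 genes. The parts of the larger pool and of the changed t in this loss were not tested. The muscle difference of the members was positive for all 100 under each of the scalings tried, as the choice of genes favours, so the sign supports nothing. Its medians were 0.57 with TMM, 0.57 with RLE, 0.65 with no factor and 0.55 with TMM within each tissue. Relative to the median of all genes averaging at least 1 CPM, which with no factor was 0.05 in muscle and -0.20 in skin, the members were 0.63, 0.64, 0.61 and 0.58 higher. Without a factor 24 of the 100 still met the conditions and only 17 were chosen again, the other 7 of the 24 being lost by rank alone. The level or ratio condition was no longer met by 52, the limit was reached in skin by 43 and in gills by 1, and some members failed in more than 1 way.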

How the data were processed

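Poly-A libraries of muscle, gills and skin from 14 fish were sequenced as unstranded read pairs, per the labels. The deposited values are unnormalized counts for 21024 genes in 42 libraries, all used here. SAMtools 1.10, HISAT2 2.2.1, Cufflinks, FastQC and Trim Galore 0.6.6 are listed, in no order, in the submitters' processing notes. Not given in the sources used here are the build, the annotation and the program that counted. Of the values from 1 to 10, 75.8% are even, with the value 2 occurring 20024 times and the value 1 occurring 4299 times. Whether a count stands for a read or a read pair is not given, so the counts above may not be numbers of read pairs. Genes that overlap or lie antisense to each other cannot be told apart without strand, and genes sharing reads with near copies are uncertain.

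The members, lists and tests were chosen with earlier results of these data known. Libraries follow the sample titles. The fixed lists of named genes and markers could not be applied, as the identifiers carry no names. CPM were scaled with TMM over all 42 libraries, and log2 values have 1 CPM added. SEs are the log2 fold change over the root of its F statistic. R 4.3.3 with edgeR 4.0.16 gave robust quasi-likelihood tests (filterByExpr, TMM, two-sided, Benjamini-Hochberg over all genes tested, threshold 0.05): season on the 14 muscle libraries, tissue differences on all 42 in 6 groups. limma 3.58.1 and DESeq2 1.42.0 served as alternatives, with other scalings, pseudocounts, filters, blocks and left-out libraries. The tests were also run on simulated data of independent libraries, with no near-identical sets. That run does not show how the tests behave with such sets, and nothing above rests on it. The same fish gave all 3 tissues, per the labels; deviations of same-fish libraries correlated at a mean of 0.0653 for muscle and gills and 0.101 for muscle and skin, and the fish was a block only in an alternative. Named are the members ranked first and second, and by rank those ranked 3 to 5, the extremes of difference and of muscle level, and the last 2.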

Additional observations from a re-analysis of the deposited data

Results flagged for a closer look

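Of 38 sets of 7 libraries examined for a lone extreme value, 4 held one, all in muscle summer 4. A value was singled out when its gap to the nearest library took more of the range of its group than Dixon's critical value allows. That critical value is for 7 separate values, and summer muscle 3, 5, 6 and 7 were near-identical. The 4 flags also share 1 library, so they are a description and are not set against a chance rate. OAV3G000013090 was at 21.7 CPM in muscle summer 4, with the next summer library at 17.0 CPM. The TMM factor of that library was 0.660, with the next at 0.520. Genes at 0 made up 30.3% of its table, against 12.7% in the next, and gill-enriched genes took 0.144% of its counts, against 0.0875% in the next. Over single members, muscle summer 4 was the lone extreme of its group for 12 of the 100, and skin summer 4, which also stood apart from its tissue, for 12 as well. No share over all genes was computed, so nothing particular to the members is read from these counts.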

How the results depend on the processing

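The number of members called higher in summer muscle, 42 beside 2.36% of all genes, was 0 in edgeR with near-identical libraries averaged (0 of all genes; 71 members and 7.45% of all genes at an unadjusted p under 0.05), 82 in DESeq2 (4.94%), 74 in 1 fit over all 42 libraries (4.13%), 14 with winter libraries of TMM factors over 0.6 only (3.81%), 77 with those under 0.6 only (12.7%), and 16 to 57 with 1 muscle library left out (0.917% to 3.23%). With the individual number as a replicate block, where numbers name different fish in each season and deviations of same-numbered libraries correlated at -0.141 to 0.169, it was 24 (1.62%). Of the 100 members the rule chose again 56 with the season taken from the tag, 60 with near-identical libraries averaged, 24 without the libraries that stand apart, 25 with winter libraries of TMM factors over 0.6 and 36 under 0.6, 17 with no scaling factor, 46 with TMM within each tissue, 33 and 48 with gills and skin limits of 0.1 and 0.4, 49 when ranked by the difference, and 63 to 92 with 1 muscle library left out. The median difference of the members in muscle was 0.37 with winter TMM factors over 0.6 and otherwise 0.45 to 0.70, and that in skin was -0.17 with no scaling factor. The cause of these shifts was not tested, and many of the settings also change the size of the pool or the number of samples. Counts of members called between tissues stayed within 1.5 times under every alternative run, the fish as replicate block included (31 and 47 against gills, 31 and 41 against skin). No fit between tissues was run without a scaling factor, so how far these counts depend on scaling between tissues was not tested. TMM within each tissue, the split by TMM factor and the spread with near-identical libraries averaged were chosen after seeing the data. Of the 50 members under 15 CPM in muscle edgeR called 13, and of the other 50 it called 29. The share of all genes called on either side of 15 CPM was not computed, and nothing is read from the split.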
